A study of Homo sapiens with 4 samples.

Results

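The miR-34 and miR-449 miRNAs form one seed family, and they were chosen by name, as the 6 mature miRNAs hsa-miR-34a-5p, hsa-miR-34b-5p, hsa-miR-34c-5p, hsa-miR-449a, hsa-miR-449b-5p and hsa-miR-449c-5p. They were selected on their counts in 231 -G EV and 231 EV within each replicate number, so their values in that contrast are given as a description, with no test. A total of 5 of the 6 were listed for both replicates, where 539 miRNAs were listed in all. The remaining one, hsa-miR-34b-5p, was not analysed here.

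A miRNA guides a silencing complex to messenger RNAs through its seed, bases 2 to 8, so that miRNAs with one seed share many targets. The miR-34 genes are transcribed in response to p53, and their products hold back cyclin-dependent kinases, MET and BCL2, which slows the cell cycle and favours apoptosis. The miR-449 genes are read in multiciliated cells of the airway, the oviduct and the efferent ducts, where together with miR-34b and miR-34c they lower CP110 and components of Notch signalling while basal bodies form. Extracellular vesicles (EV) are membrane particles that cells release, and they carry small RNA into the medium.

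To profile the miRNAs in EV, small RNA was sequenced in 4 libraries of EV from MDA-MB-231, a long-established epithelial line of human triple-negative breast cancer that carries a mutant p53. The cells were labelled WT in genotype in every library. For 231 EV, near-confluent cells were moved to EV-free DMEM, and for 231 -G EV to glucose-free medium, in both cases for 12 h before EV were pelleted from the cleared medium by ultracentrifugation. Each group had a library numbered 1 and a library numbered 2, and the number also named the preparation. RNA of both libraries numbered 1 was pretreated to remove modifications that block adapter ligation, with inserts of 14 to 40 nt, whereas both libraries numbered 2 were built with a NEBNext small RNA kit. What differed between the replicates and what differed between the preparations cannot be told apart, and the labels did not state whether the replicates were separate cultures. P-values then measure the spread between these libraries, which may be technical.

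The sequences of the members are shown because the shared seed defines the family and because near-identical copies can exchange reads. They were taken from RefSeq on GRCh38.p14, and capitals mark bases 2 to 8.
hsa-miR-34a-5p: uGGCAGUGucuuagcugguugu
hsa-miR-449a: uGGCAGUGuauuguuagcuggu
hsa-miR-449b-5p: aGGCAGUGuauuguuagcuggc
hsa-miR-34b-5p: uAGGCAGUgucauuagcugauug
hsa-miR-449c-5p: uAGGCAGUguauugcuagcggcugu
The first 3 shared the seed GGCAGUG, and they made up the 3 of 2370 human mature miRNA names compared that held it, a share of 0.127%. The mature sequence of hsa-miR-34c-5p was not used here, so it was not among the names compared. In hsa-miR-34b-5p and hsa-miR-449c-5p the same 7 letters started 1 base later, at base 3, which gave the seed AGGCAGU. That second seed was held by 3 of the 2370 names as well, and the additional one, hsa-miR-2682-5p, is no member and was not analysed here. Aligned without gaps on GGCAGUG, hsa-miR-449a and hsa-miR-449b-5p differed at 2 of 22 bases. In the same alignment hsa-miR-449c-5p differed at 4 of 22 bases from each of them. The split of reads within the miR-449 branch is therefore uncertain where the matching of reads allowed mismatches, and the sum over the branch is given as well.

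The members lie at 3 loci. MIR34A is on the minus strand of chromosome 1, with the mature miRNA at chr1:9151735-9151756, inside the long noncoding gene MIR34AHG, where it overlapped an exon of 1 of 4 annotated transcripts. MIR34B and MIR34C lie on the plus strand of chromosome 11, with hsa-miR-34b-5p at chr11:111512950-111512972 and the MIR34C hairpin at chr11:111513439-111513515, separated by 417 bases and in no host gene. MIR449A, MIR449B and MIR449C lie on the minus strand of chromosome 5 in introns of CDC20B, a protein-coding gene on the same strand. Their mature miRNAs are at chr5:55170586-55170607, chr5:55170706-55170727 and chr5:55172313-55172337. Their hairpins are separated by 23 and by 1519 bases, so that the miR-449 branch comes from a single stretch of one gene. All 5 CDC20B transcripts spanned the cluster, with 0 exon overlaps.

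The libraries differed in depth and in content, and both bear on the members. Totals were 18397 reads for 231 EV and 15597 for 231 -G EV of replicate 1, against 224966 and 170894 reads for replicate 2. Levels are counts per 1000000 miRNA reads of the library (CPM), so a single read was worth from 4.45 to 64.1 CPM. A count of 0 still allows up to 3 reads, a limit of 163 and 192 CPM in replicate 1 and 13.3 and 17.6 CPM in replicate 2. The library 231 EV replicate 1 stood apart, since a single miRNA, hsa-miR-182-5p, took 51.0% of its reads, against 0.250% to 2.73% in the other libraries. A fixed list of 5 miRNAs taken as marks of MDA-MB-231, led by miR-21-5p, summed to 359401 and 286716 CPM in replicate 2, but to 21145 and 30134 CPM in replicate 1. Of that list miR-31-5p had from 1 to 4 reads in each library. In replicate 1 the 4 red cell miRNAs summed to 200359 and 427775 CPM, against 2534 and 790 CPM in replicate 2. Most of this was miR-451a, at 194434 and 408027 CPM in replicate 1, whereas 1 of the list had 0 reads there against 80 and 19 in replicate 2. The 4 white cell miRNAs were lower in replicate 1, at 435 and 1731 CPM, against 8201 and 3926 CPM in replicate 2. Members found in replicate 1 were thus read beside a large share of miRNAs that MDA-MB-231 is not known for, and the part of this in their values was not tested.

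The first member of the p53-induced branch, hsa-miR-34a-5p, is the best known tumour suppressor of the family. It had 4 reads in 231 EV and 3 in 231 -G EV of replicate 1, and 45 and 32 reads in those of replicate 2. In CPM its levels were 217, 192, 200 and 187 in the same order. At these totals all 4 levels lay close together although the depths differed widely, and the groups overlapped within counting error. With totals that did not count hsa-miR-182-5p the level in 231 EV replicate 1 was 444 CPM, and the others were 198, 201 and 188 CPM. The 95% Wilson intervals were 84.6 to 559 and 65.4 to 565 CPM in replicate 1, and narrowed to 150 to 268 and 133 to 264 CPM in replicate 2. Reads were amplified without molecular identifiers and do not stand for separate molecules, so these intervals and limits cover counting error only. Within pair 1, the 2 libraries of replicate 1, the ratio of 231 -G EV to 231 EV was 0.885 with an exact conditional interval of 0.130 to 5.23. The ratio was 0.446 (0.0653 to 2.64) when hsa-miR-182-5p was not counted in the totals, and 0.493 (0.0722 to 2.91) with TMM scaling. Within pair 2 the ratio was 0.936, from 0.576 to 1.51. A fall or rise of 2-fold lay within the first interval but outside the second. Among the detected miRNAs hsa-miR-34a-5p ranked 127 of 484, 170 of 453, 135 of 531 and 140 of 492 in the 4 libraries.

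The second miR-34 member, hsa-miR-34c-5p, is the product of the chromosome 11 locus, which is read in ciliated epithelium and in testis as well as after p53 activation. It had 3 reads in 231 EV and 26 in 231 -G EV of replicate 1, and 1 and 0 reads in those of replicate 2. These were levels of 163, 1667, 4.45 and 0 CPM. Both replicate 1 libraries were above both replicate 2 libraries, and the highest level by far was that of 231 -G EV replicate 1. In pair 1 the level in 231 -G EV was 10.2-fold that in 231 EV (3.13 to 52.8). With library totals that did not count hsa-miR-182-5p, this became 5.15-fold (1.58 to 26.6). In pair 2 both counts were within the limit of 3 reads, and no fold is given. The member ranked 57 of 453 detected miRNAs in 231 -G EV replicate 1 and 409 of 531 in 231 EV replicate 2.

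In the miR-449 branch, known from multiciliated cells, most reads were those of hsa-miR-449c-5p in a single library. This miRNA had 0 reads in 231 EV and 58 reads in 231 -G EV of replicate 1, and 0 and 1 reads in those of replicate 2. The level of 3719 CPM in 231 -G EV replicate 1 (2878 to 4804) put it at rank 30 of 453, the highest place of any member in any library. The single read of 231 -G EV replicate 2 was 5.85 CPM (1.03 to 33.1). Its reads were thus nearly all in 1 of the 4 libraries, and both 231 EV libraries were at 0. Against the limit of 3 reads in 231 EV, the level in pair 1 was at least 22.8-fold higher in 231 -G EV, or at least 11.5-fold higher with totals that left out hsa-miR-182-5p. These bounds take the 58 reads as they are, and the exact conditional intervals, which cover counting error in both libraries, start at 18.0 and 9.05. In pair 2 the counts of 0 and 1 were both within the limit.

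Its neighbour hsa-miR-449a, which like hsa-miR-449b-5p has the seed of miR-34a, had 0 reads in 231 EV against 12 in 231 -G EV of replicate 1, and 3 against 4 in replicate 2. The levels were 0, 769 (440 to 1344), 13.3 (4.54 to 39.2) and 23.4 CPM (9.10 to 60.2). It was the sole miR-449 member with reads in 3 libraries. In pair 1 it was at least 4.72-fold higher in 231 -G EV, or at least 2.38-fold higher with totals that did not count hsa-miR-182-5p, and the exact intervals start at 3.28 and 1.65. In pair 2 the ratio was 1.76 with an interval of 0.297 to 12.0, so that neither a fall nor a rise could be read at this depth. The last member, hsa-miR-449b-5p, had 3 reads in 231 -G EV replicate 1, or 192 CPM (65.4 to 565), and 0 reads in the other 3 libraries. Those 3 reads are at the limit, and no fold is given. Of the opposite strands of the hairpins, hsa-miR-449b-3p was listed for replicate 1, at 0 reads in both libraries. The opposite strands hsa-miR-34a-3p, hsa-miR-34b-3p, hsa-miR-34c-3p and hsa-miR-449c-3p were not analysed here.

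**Figure D1:**
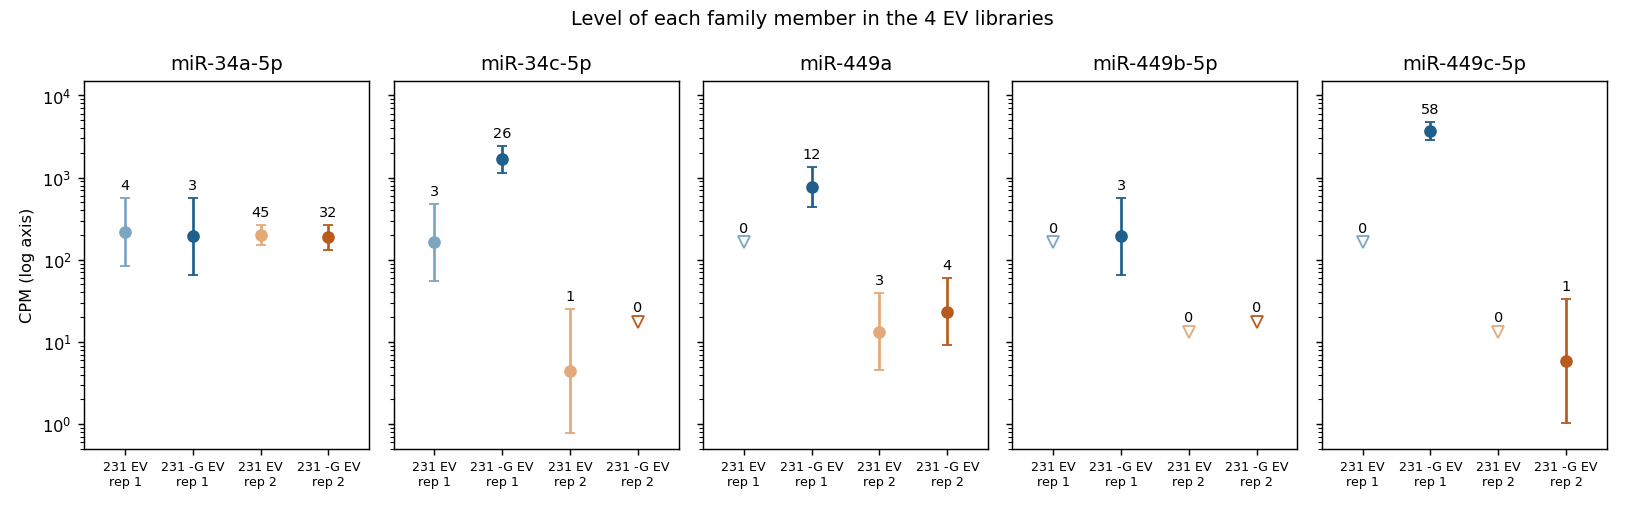
Level of the 5 listed members in each library, in CPM on a log axis, with 95% Wilson intervals for counting error and the read count above each point; open triangles stand at the limit of 3 reads where 0 reads were found. The levels of miR-34a-5p lie between 187 and 217 CPM in all 4 libraries, whereas miR-34c-5p, miR-449a and miR-449c-5p are highest in 231 -G EV replicate 1.

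Summed over the family, reads numbered 7 in 231 EV and 102 in 231 -G EV of replicate 1, and 49 and 37 in those of replicate 2. The summed levels were 380 CPM (184 to 785), 6540 CPM (5391 to 7932), 218 CPM (165 to 288) and 217 CPM (157 to 298). 231 -G EV replicate 1 was above the other 3 libraries, whose intervals overlapped. In pair 1 the ratio of 231 -G EV to 231 EV was 17.2 (8.05 to 43.8), which became 8.66 (4.06 to 22.1) with totals without hsa-miR-182-5p, and in pair 2 it was 0.994 (0.631 to 1.55). Without hsa-miR-449c-5p the ratio of pair 1 was 7.41 (3.31 to 19.5), and without hsa-miR-34a-5p that of pair 2 was 1.65 (0.354 to 8.29). By branch, the miR-34 members went from 7 to 29 reads in pair 1, a ratio of 4.89 (2.09 to 13.2), or 2.46 (1.06 to 6.66) with totals without hsa-miR-182-5p. The miR-449 members went from 0 to 73 reads, at least 28.7-fold higher (exact interval from 22.8), or at least 14.5-fold higher (from 11.5) with those totals. In pair 2 the miR-34 members had 46 and 32 reads, a ratio of 0.916 (0.564 to 1.47), and the miR-449 members had 3 and 5 reads, a ratio of 2.19 (0.427 to 14.1).

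The makeup of the family also differed between the libraries. In 231 EV replicate 2 hsa-miR-34a-5p made up 91.8% of the family reads (80.8 to 96.8), and in 231 -G EV replicate 2 it made up 86.5% (72.0 to 94.1). In 231 -G EV replicate 1 it made up 2.94% (1.01 to 8.29), while hsa-miR-449c-5p made up 56.9% (47.2 to 66.1), hsa-miR-34c-5p 25.5% and hsa-miR-449a 11.8%. In 231 EV replicate 1 the 7 reads were 57.1% hsa-miR-34a-5p (25.0 to 84.2) and 42.9% hsa-miR-34c-5p. The number of members with a read was 2, 5, 3 and 3 of 5 in the 4 libraries, and all 5 were met in the shallowest one.

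**Figure D2:**
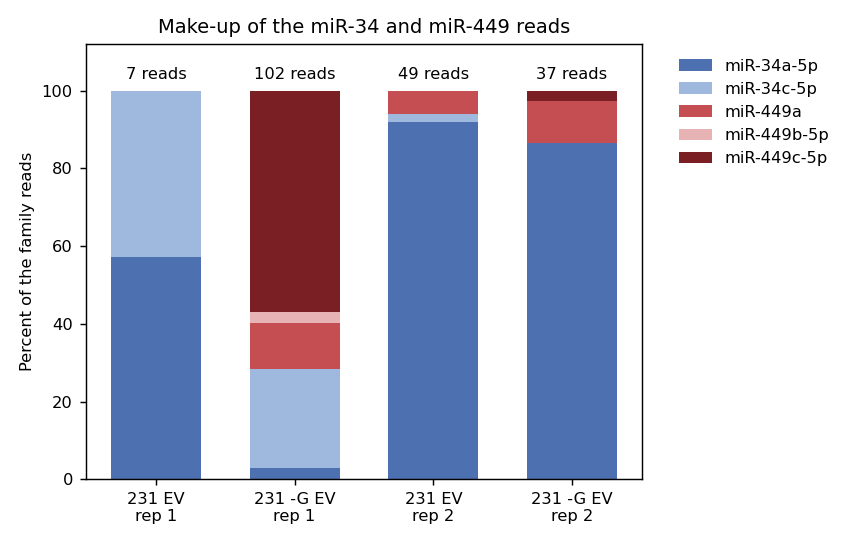
Share of each member in the reads of the family, in percent, with one bar per library and the number of family reads above it. The bars of replicate 2 are mostly miR-34a-5p, at 91.8% and 86.5%, and the bar of 231 -G EV replicate 1 is mostly miR-449c-5p, at 56.9% of 102 reads.

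To set the members beside the other miRNAs, fold changes were formed within each pair as CPM plus 1 in 231 -G EV over CPM plus 1 in 231 EV. In pair 1, 4 of the 5 members were above 1.5-fold, where 182 of the 338 miRNAs with a read in the pair and listed for both replicates were, which is 53.8%. With totals without hsa-miR-182-5p it was again 4 members, where 128 of the 338 were, or 37.9%. In pair 2, 2 of the 4 members with a read were above 1.5-fold, where 117 of 433 were, or 27%, and those 2 rested on 4 reads or fewer. The rule used this contrast, and nothing is read from these counts. The median log2 ratio of pair 1 over all miRNAs was 0.82. Over the members it was set by the pseudocount, at 7.60 with 1 CPM and 4.34 with 10 CPM, since it was the value of hsa-miR-449b-5p on 3 reads against 0. With counts of 0 put at 3 reads, the members' median was 2.24. In pair 2 the medians were 0.34 over the members and -0.11 over all miRNAs. In pair 1, 4 of the miRNAs listed for both replicates had at least 10 reads in 231 -G EV and 0 in 231 EV, and hsa-miR-449c-5p and hsa-miR-449a were among them, beside miR-206 and miR-375-3p.

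**Figure D3:**
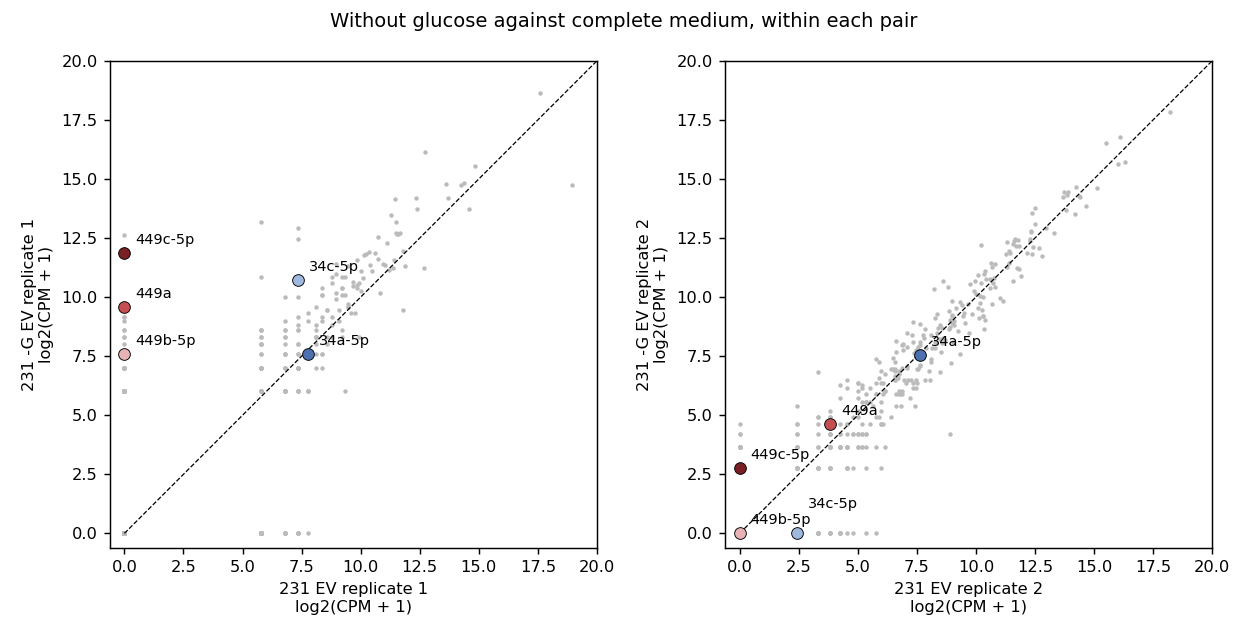
Level in 231 -G EV against level in 231 EV, as log2(CPM + 1), for replicate 1 on the left and replicate 2 on the right, with members in colour, the other miRNAs in grey and a dashed line of equal level. On the left miR-449c-5p, miR-449a and miR-34c-5p lie above the line and miR-34a-5p lies near it; on the right miR-34a-5p lies near the line and the other members have 4 reads or fewer in either library.

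Over both pairs, the quasi-likelihood test of edgeR, with replicate as a block, called 0 of 384 miRNAs between 231 -G EV and 231 EV, or 0%, where a call took a log2 fold change beyond 1 in size and an adjusted p below 0.05. At an unadjusted p under 0.05 there were 5, and DESeq2 and limma each called 0 as well. With library totals that left out hsa-miR-182-5p the count was 1, for a member that the rule had chosen on this contrast, so nothing is read from it. A total of 4 of the 5 listed members passed the filter of reads in at least 2 libraries, and hsa-miR-449b-5p, with reads in 1 library, did not. Their fitted log2 fold changes are given with no test. For hsa-miR-34a-5p it was -0.12 (SE 1.23), and for hsa-miR-34c-5p 2.25 (SE 1.56). For hsa-miR-449a it was 2.61 (SE 1.62), and for hsa-miR-449c-5p 7.75 (SE 2.09). This last value and its SE depend on the prior count because both 231 EV libraries were at 0. Without 231 -G EV replicate 1, in a fit with no replicate block, the fitted log2 fold changes were -0.15, -6.06, 1.05 and 2.90 in the same order. The median over the 384 miRNAs was 0.20, and -0.14 with TMM scaling. In an EV pellet, fewer EV that carry a miRNA and less of it per EV cannot be told apart.

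The contrast of replicate 2 with replicate 1 was not used by the rule, although it rests on the same 4 libraries, 231 -G EV replicate 1 included. It was tested in the same edgeR fit with the medium as a block. Over all miRNAs 29 of 384 were called lower in replicate 2, or 7.55%. In hsa-miR-34a-5p the log2 fold change was -0.08 (SE 1.28, adjusted p = 0.960), where the median over the 384 miRNAs was 0.75. For the other members the fitted values are given with no test, since most of their reads came from 231 -G EV replicate 1 and also set their place in the rule. They were -7.39 (SE 1.66) for hsa-miR-34c-5p, -3.56 (SE 1.75) for hsa-miR-449a and -8.55 (SE 1.94) for hsa-miR-449c-5p. Without that library, in a fit with no medium block, hsa-miR-34c-5p was at -5.59 (SE 1.90), on 3 reads against 1 and 0, hsa-miR-449a at 4.38 (SE 6.49) and hsa-miR-449c-5p at 1.94 (SE 9.93).

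Within a medium the difference between the replicates can be read from the counts directly. In 231 EV, hsa-miR-34c-5p had 3 reads in replicate 1 against 1 in replicate 2, both within the limit. At the depth of replicate 2 the 3 reads would be 36.7. Its level was thus 36.7-fold higher in replicate 1, with a wide exact interval of 2.95 to 1926 on these few reads. In 231 -G EV hsa-miR-34c-5p was at least 95-fold higher in replicate 1, on 26 reads against 0, and the exact interval starts at 71.9. In 231 -G EV, hsa-miR-449a was 32.9-fold higher in replicate 1 (9.96 to 140). There hsa-miR-449c-5p was 635-fold higher (110 to 25528), on 58 reads against 1, a count within the limit of 3 reads. At library totals, hsa-miR-34a-5p differed 1.09-fold in 231 EV (0.284 to 2.98) and 1.03-fold in 231 -G EV (0.201 to 3.28). At the depth of 231 -G EV replicate 2, the 58 reads of hsa-miR-449c-5p would be 635 reads, where 1 was found, and the 26 reads of hsa-miR-34c-5p would be 285, where 0 were found. At the depth of 231 EV replicate 1, the 45 reads of hsa-miR-34a-5p in replicate 2 would be 3.68, where 4 were found. The tables of the replicates were made separately, each with its own list of miRNAs, and the part of that was not tested.

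**Figure D4:**
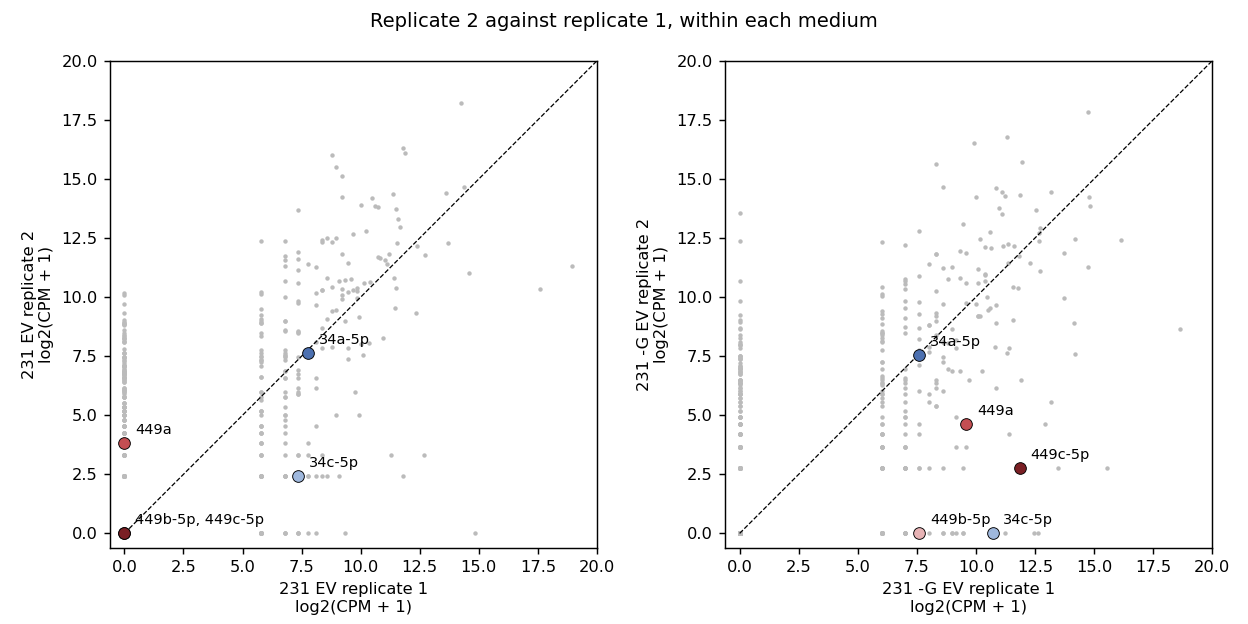
Level in replicate 2 against level in replicate 1, as log2(CPM + 1), for 231 EV on the left and 231 -G EV on the right, with members in colour, the other miRNAs in grey and a dashed line of equal level. In both media miR-34a-5p lies near the line and miR-34c-5p below it, in 231 EV on 3 reads against 1, and miR-449c-5p lies below it on the right, where it had 58 reads in replicate 1 and 1 in replicate 2.

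To see which miRNAs had a profile like those of the leading members, the CPM of each of 272 miRNAs were divided by their sum over the 4 libraries, and Euclidean distances were taken between these profiles. Nearest to hsa-miR-449c-5p was miR-206, at a distance of 0.00222 and with 98 reads in 231 -G EV replicate 1 and 0 in each of the other libraries. It was followed by miR-133a-3p (0.00989), miR-215-5p (0.0150), miR-3158-3p (0.0323) and miR-1-3p (0.0364). Of these, miR-206, miR-133a-3p and miR-1-3p are miRNAs of striated muscle, and miR-215-5p is one of gut and kidney epithelium. Within the family, hsa-miR-449a was at place 8 (0.0544), hsa-miR-34c-5p at place 9 (0.126) and hsa-miR-34a-5p at place 92 (0.875). The member hsa-miR-449b-5p, like miR-206 with reads in 231 -G EV replicate 1 alone, was below the minimum of 10 reads and was not compared. Nearest to hsa-miR-34a-5p were miR-340-5p (0.0715), miR-140-5p (0.0797), miR-96-5p (0.113), miR-181a-3p (0.118) and miR-146a-5p (0.119). The other members compared were far from hsa-miR-34a-5p, with hsa-miR-34c-5p at place 262, hsa-miR-449a at place 264 and hsa-miR-449c-5p at place 271. These distances over 4 libraries of unequal depth are a description.

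In pair 1, the muscle list and the list of gut and kidney epithelium were higher in 231 -G EV, as were the miR-449 members. Leaving hsa-miR-182-5p out of the totals lowers every ratio of pair 1 by one common factor, and values with those totals are given as well. The 5 listed muscle miRNAs summed to 163, 14875, 75.6 and 23.4 CPM in the 4 libraries, with 4, 0, 2 and 4 of them at 0. In pair 1 that was 3 reads against 232, a ratio of 91.2 (30.8 to 446), or 46.0 (15.5 to 225) with these lower totals, and in pair 2 a ratio of 0.310. Of this list miR-1-3p had 3 and 122 reads in pair 1, a ratio of 48.0 (16.0 to 236), and miR-206 was at least 38.5-fold higher in 231 -G EV (exact interval from 30.7). The 3 miRNAs of gut and kidney epithelium, which p53 also induces, summed to 1522, 13400, 2000 and 1679 CPM, with none at 0 in any library. Their ratio was 8.80 in pair 1 (5.92 to 13.6), or 4.44 (2.98 to 6.84) with the lower totals, and 0.840 in pair 2. The sum of pair 1, 28 reads against 209, rested mostly on miR-215-5p, which had 1 read against 145. The others of the list had 21 against 55 and 6 against 9 reads there. Thus the library with the miR-449 reads was also the highest in both of these lists. At library totals it was the highest as well for the liver miRNA and for the endocrine, red cell, neural and p53 lists. The same held for the list of miRNAs low in MDA-MB-231, so this was not particular to the muscle and gut lists.

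The miRNAs that are low in MDA-MB-231, the miR-200 family and miR-205-5p, which mark epithelial cells, summed to 924, 5322, 858 and 205 CPM over all 6. Their ratio was 5.76 in pair 1 (3.39 to 10.4), or 2.90 (1.71 to 5.22) with the lower totals, and 0.239 in pair 2 (0.162 to 0.344). In pair 1, 4 of the 6 were above 1.5-fold, where 53.8% of all miRNAs were. The 2 left were below the inverse in that pair, a share not counted over all miRNAs. There miR-200a-3p had 1 and 29 reads, and miR-200b-3p had 9 and 42 reads. In pair 2 miR-205-5p had 109 and 3 reads. In pair 1 the ratio was 3.33 for the liver miRNA miR-122-5p, 2.56 for the endocrine list, 2.14 for the red cell list, 3.98 for the white cell list and 1.34 for the neural list (0.840 to 2.14). With totals without hsa-miR-182-5p these became 1.68, 1.29, 1.08, 2.01 and 0.675. At those totals the liver (0.948 to 3.11), endocrine (0.882 to 1.92), white cell (0.887 to 5.11) and neural (0.423 to 1.08) intervals included 1. That of the red cell list was 1.03 to 1.12. The neural interval included 1 with either total, so no direction was measured for that list. In pair 2 the same lists were at 0.398, 1.05, 0.312, 0.479 and 0.713. The 3 listed testis miRNAs had 1, 0, 9 and 0 reads. The part of these other sources in the miR-449 and miR-34c-5p reads was not tested.

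**Figure D5:**
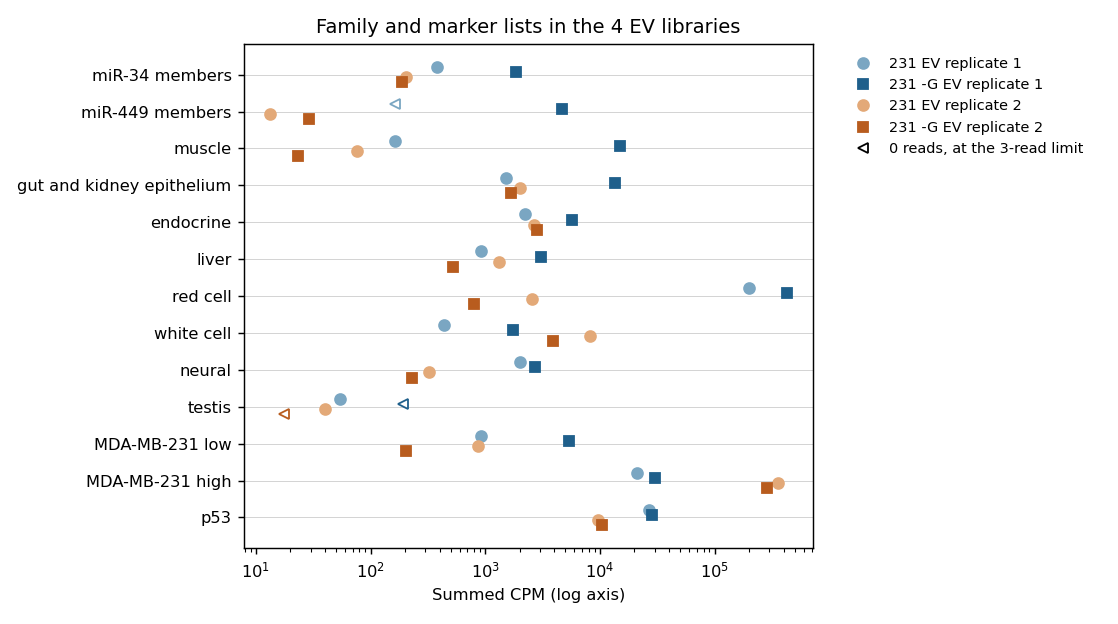
Summed level of the miR-34 members, the miR-449 members and the marker lists in the 4 libraries, in CPM on a log axis; circles are 231 EV, squares 231 -G EV, and open triangles stand at the limit of 3 reads where a list had 0 reads. The library 231 -G EV replicate 1 is the highest of the 4 for the miR-449 members, the muscle list at 14875 CPM and the list of gut and kidney epithelium at 13400 CPM. It is also the highest for the liver, endocrine, red cell, neural, p53 and MDA-MB-231 low lists.

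To place miR-34a-5p beside other miRNAs of its pathway, a list of 11 miRNAs that p53 induces or helps to mature was followed, of which 10 were listed for both replicates. They summed to 490 and 448 reads in pair 1, a ratio of 1.08 (0.947 to 1.23) or, with totals without hsa-miR-182-5p, 0.543 (0.477 to 0.619), and to 2147 and 1781 reads in pair 2, a ratio of 1.09 (1.02 to 1.16). Of the 9 tested by edgeR, 0 were called in either direction, and the median log2 fold change was 0.32, beside 0.20 over all 384. Above 1.5-fold were 6 of 9 in pair 1, where 53.8% of all miRNAs were, and 0 of 9 in pair 2, where 27% were. Below the inverse were 2 of 9 in pair 1 and 4 of 9 in pair 2. The share of all miRNAs below it was not counted at library totals, so nothing is read from these counts. With totals without hsa-miR-182-5p, 4 of 9 were above and 3 below in pair 1. At those totals 128 of all 338 miRNAs, or 37.9%, were above and 149 were below. The sum in pair 1 rested on miR-143-3p, named after its values were seen, which held 447 of the 490 reads and had 210 in 231 -G EV. Without it the other 9 went from 43 to 238 reads in pair 1, a ratio of 6.53 (4.70 to 9.26) or, with the lower totals, 3.29 (2.37 to 4.67), where miR-215-5p had 145 of the 238. In pair 2 they had 1678 and 1609 reads, a ratio of 1.26 (1.18 to 1.35). The p53 list shares 3 miRNAs with the list of gut and kidney epithelium and 2 with the list of those low in MDA-MB-231.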

How the data were processed

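Small RNA of EV was sequenced in 4 libraries, 2 of 231 EV and 2 of 231 -G EV. The authors deposited whole-number read counts per mature miRNA beside scaled values, in a table for each replicate. The deposited scaled values, CPM for replicate 1 and TPM for replicate 2 per the file headers, equalled the count over the library total times 1e+06, so the counts were used and both are called CPM. The study's methods describe adapter trimming, removal of other RNA classes, alignment and matching to miRBase. The processing notes of the submitters name FastQC, cutadapt, Bowtie, Bowtie2, edgeR, StringTie and hg38. A miRNA listed in 1 table was left out of comparisons across replicates.

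EdgeR 4.0.16 (R 4.3.3) was run on the counts with library totals as deposited, medium and replicate as terms, 384 miRNAs above 0 in at least 2 libraries, and Benjamini-Hochberg adjustment over them. It was tested on simulated data. Each SE of its log2 fold changes is approximate, formed as their size over the square root of the F statistic. DESeq2 1.42.0, limma 3.58.1, other totals and filters, and fits without a block or a library were alternatives. Replicate numbers were taken as pairs, since the labels tie them to the preparation. Deviations of same-numbered libraries from the group means had a correlation of 0.59 over the 384 miRNAs. Ratios of reads have exact conditional 95% intervals, and shares have Wilson intervals (SciPy 1.17.1).

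The members and the lists were chosen with earlier results of these data known. Named were all members, opposite strands of their hairpins, miRNAs with a member's seed, the 5 nearest profiles of the member with most reads in each replicate, among miRNAs with at least 10 reads in all, and list miRNAs with at least 20 reads in a library and over 4-fold apart in that pair. miR-375-3p and miR-143-3p were named after their values were seen. Sequences and positions came from RefSeq tables on GRCh38.p14, which held 5 of the 6 members, and host genes from GENCODE on the same assembly.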

Additional observations from a re-analysis of the deposited data

Results flagged for a closer look

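The member hsa-miR-34c-5p had values of opposite sign in the pairs. On the log2(CPM + 1) scale, 231 -G EV differed from 231 EV by 3.35 in pair 1, on 3 reads against 26, and by -2.44 in pair 2, on 1 read against 0. The difference between the pairs was not tested. Both counts of pair 2 are within the limit of 3 reads, so that no direction was measured there, and with a pseudocount of 10 CPM its value was -0.53.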

How the results depend on the processing

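Depth is a limit, since a read of replicate 1 was worth up to 64.1 CPM. In replicate 2 the counts of the listed members other than hsa-miR-34a-5p were all within 4 reads. Between the media 0 miRNAs were called with the replicate block and 0 without it, although the block lowered the common dispersion from 1.60 to 0.301, and from 0 to 0 were called when a library was left out. The count was 1 with totals without hsa-miR-182-5p, where it was a member and nothing is read from it, and 1 when the filter asked for reads in a single library, where no member was called. Other alternatives called 0. Without the replicate block the fitted log2 fold change was 5.08 for hsa-miR-449a and 10.6 for hsa-miR-449c-5p. Without 231 -G EV replicate 1, chosen as an alternative for members after seeing the data, it was -6.06 for hsa-miR-34c-5p, 1.05 for hsa-miR-449a and 2.90 for hsa-miR-449c-5p. Limma gave 0.45 for hsa-miR-34c-5p and 5.18 for hsa-miR-449a, and DESeq2 gave 5.67 for hsa-miR-449c-5p. From 231 -G EV replicate 1 came nearly all reads of hsa-miR-449c-5p.

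Between the replicates 66 miRNAs were called, 37 higher and 29 lower in replicate 2. The count was 0 with limma, with 145 at an unadjusted p under 0.05, and 120 with no medium block, and it ranged from 26 to 90 when 1 library was left out, with 27 without 231 EV replicate 2 and 26 without 231 -G EV replicate 2. Fits without a library had no medium block, since none could be fitted with both terms. Without 231 -G EV replicate 1 the log2 fold change of hsa-miR-449c-5p turned from -8.55 to 1.94, where 1 read was left. In the same fit hsa-miR-449a turned from -3.56 to 4.38, while hsa-miR-34c-5p went from -7.39 to -5.59.

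The summed ratio of pair 1 fell from 17.2 to 7.41 without hsa-miR-449c-5p, and that of pair 2 went from 0.994 to 1.65 without hsa-miR-34a-5p. That of pair 1 was 8.66 with totals without hsa-miR-182-5p and 9.57 with TMM scaling, within its interval of counting error but lower by more than 1.5 times. The ratio of the p53 list in pair 1 rose from 1.08 to 6.53, and that of pair 2 from 1.09 to 1.26, without miR-143-3p, an alternative chosen after seeing the data. Totals without hsa-miR-182-5p, for the lists also chosen after seeing the data, turned the ratio of pair 1 from 1.08 to 0.543 for the p53 list, from 1.43 to 0.718 for the list of miRNAs taken as marks of MDA-MB-231 and from 1.34 to 0.675 for the neural list. The neural interval included 1 with either total.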
